A study of Mus musculus with 2 samples.

Results

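Ifit1, Ifit2, Ifit3, Ifit3b, Isg15, Usp18, Rsad2, Oasl2, Oasl1 and Rtp4 are 10 antiviral genes that interferon switches on. They were taken by name from the 31053 genes listed for both libraries, and all 10 were found. The cells were hypothalamic microglia of young wild-type mice, several of which were pooled, sorted 20 h after an injection of plasma protein tagged with a dye. Cells with the dye (plasma-positive) and cells without it (plasma-negative) were collected by fluorescence sorting, 1 library of single cells from each. Both groups had the same genotype and the same injection, and how many mice were pooled is not given in the sources used here. With 1 library per group there was no replicate, so no test was run, and each interval below is a 95% interval for counting error alone.

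Type I interferon binds a receptor on the cell surface, whose kinases activate transcription factors. These bind a short DNA motif, the interferon-stimulated response element (ISRE), ahead of the genes they switch on. In microglia, the resident macrophages of the brain, a minority of cells with this programme is known from infection, ageing and neurodegeneration. The Ifit genes encode tetratricopeptide-repeat proteins that bind RNA or other Ifit proteins. Isg15 encodes a ubiquitin-like protein that is attached to other proteins, and Usp18 the protease that removes it and also dampens signalling at the interferon receptor. Rsad2 encodes viperin, an enzyme that makes a chain-terminating nucleotide. Oasl1 and Oasl2 encode relatives of the oligoadenylate synthetases, and Rtp4 encodes a receptor transporter protein.

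The genes lie at 6 places in the genome (GENCODE M21 on GRCm38; all are annotated as protein-coding, and values are counts over a whole gene). The 4 Ifit genes lie close together on the plus strand of chromosome 19, with Ifit2 at chr19:34550694-34576419, Ifit3 at chr19:34583531-34588731, Ifit3b at chr19:34607970-34613401 and Ifit1 at chr19:34640871-34650009. Oasl2 (chr5:114896936-114912234) and Oasl1 (chr5:114923240-114937915) are neighbours on the plus strand of chromosome 5. Isg15 (chr4:156199424-156200818) and Rsad2 (chr12:26442746-26456452) lie on the minus strand. Usp18 (chr6:121245906-121270917) and Rtp4 (chr16:23520291-23614222) lie on the plus strand.

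The promoters below are shown because the 10 genes were detected in the same cells, and the ISRE is a motif through which type I interferon acts. RefSeq's table (GRCm38.p6) held an entry for 8 of the 10 genes, with Usp18 and Rtp4 missing. The motif searched was 2 copies of GAAA with any 2 bases between them, or TTTC likewise on the other strand, in the 250 bases before and 50 after the start. It was found for 5 of the 8 genes, against 1131 of 32851 promoters of the same length in the table (3.44%). The 8 genes had 9 entries and were counted by gene, whereas the 32851 were counted by entry. Ifit3 and Ifit3b, both among the 5, have near-identical promoters and are not separate finds. Each run is the 250 bases before the start, read 5′ to 3′ on the gene's own strand, with matches in capitals. The regions are chr4:156200819-156201068 (minus) for Isg15, chr12:26456453-26456702 (minus) for Rsad2, chr19:34640639-34640888 (plus) for Ifit1, chr19:34583279-34583528 (plus) for Ifit3 and chr19:34607707-34607956 (plus) for Ifit3b.
Isg15: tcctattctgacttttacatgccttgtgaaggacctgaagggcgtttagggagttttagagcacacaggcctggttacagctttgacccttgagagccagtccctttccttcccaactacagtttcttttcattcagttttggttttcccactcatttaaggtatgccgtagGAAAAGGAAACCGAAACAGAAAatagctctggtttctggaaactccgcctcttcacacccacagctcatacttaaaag
Rsad2: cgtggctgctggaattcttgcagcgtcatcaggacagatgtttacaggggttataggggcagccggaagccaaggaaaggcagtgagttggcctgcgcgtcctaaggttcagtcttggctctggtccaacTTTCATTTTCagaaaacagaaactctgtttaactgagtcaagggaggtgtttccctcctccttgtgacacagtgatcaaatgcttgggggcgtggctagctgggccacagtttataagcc
Ifit1: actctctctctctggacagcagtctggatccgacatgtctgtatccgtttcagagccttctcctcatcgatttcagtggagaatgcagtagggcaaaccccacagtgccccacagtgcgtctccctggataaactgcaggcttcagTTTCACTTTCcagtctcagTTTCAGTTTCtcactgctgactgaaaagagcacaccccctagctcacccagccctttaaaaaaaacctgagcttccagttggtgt
Ifit3: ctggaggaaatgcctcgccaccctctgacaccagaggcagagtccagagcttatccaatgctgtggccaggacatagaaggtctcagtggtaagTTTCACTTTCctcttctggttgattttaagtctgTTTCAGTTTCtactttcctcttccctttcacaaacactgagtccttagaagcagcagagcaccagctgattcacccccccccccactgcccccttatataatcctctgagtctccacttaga
Ifit3b: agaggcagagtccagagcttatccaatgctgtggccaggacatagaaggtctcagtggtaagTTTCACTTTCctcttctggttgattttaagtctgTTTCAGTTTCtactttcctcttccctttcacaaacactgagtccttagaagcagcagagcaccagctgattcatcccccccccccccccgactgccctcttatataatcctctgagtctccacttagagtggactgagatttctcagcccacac
Isg15 held 3 overlapping matches in 1 block, and Ifit1, Ifit3 and Ifit3b each held a pair with the letters TTTCACTTTC and TTTCAGTTTC. Rsad2 held 1 match, and the windows of Ifit2, Oasl1 and Oasl2 held none. A second motif, the gamma-activated site (TTC and GAA with any 3 bases between them), was searched too. Ifit2 held 1 match to it in 1 of its entries, and the other genes with an entry held none. Of the 32851 promoters, 2726 (8.30%) held it. A match describes letters and is not evidence of binding.

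Ifit3 and Ifit3b are near-identical copies. Their longest coding transcripts in GENCODE M21 matched at 98.0% of 1697 aligned bases and shared an unbroken run of 329 bases, and their promoters matched at 258 of 260 aligned bases. How shared reads were counted is not given in the sources used here, so the split of counts between Ifit3 and Ifit3b is uncertain. Use of strand is not given either, and Usp18, Oasl1 and Rtp4 each overlap an annotated gene on the opposite strand (Gm44148, Gm13822 and Masp1). Masp1 had 185 UMIs in the plasma-negative and 180 in the plasma-positive library. Rtp4 also overlaps Gm45338, a noncoding gene on its own strand.

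After filtering, 9860 plasma-negative cells with 34534518 unique molecular identifiers (UMIs, each a counted RNA molecule) and 10362 plasma-positive cells with 41984977 UMIs were kept. Median depth was 3270.5 and 3753 UMIs per cell. The 10 microglia markers were found in 64.4% to 99.6% of cells in the plasma-negative library and in 68.0% to 99.8% in the other. Over 70 markers of 14 other cell types the median was 0.0203% and 0.0290% of cells, with 27 and 24 of them at 0. In each library 6 of the 70 were found in more than 5% of cells. These were Tcf4 (64.3% and 67.9%), Cd79b (14.3% and 16.4%), Mag (9.83% and 11.3%), Cox6a2, Mbp and Pecam1. Where their UMIs came from was not tested. By most of these markers each library was mainly microglia, so the share of cells that free RNA alone would give could not be read from another cell type. Levels are given as counts per 1000000 UMIs of the library (CPM). Since UMIs are counted at the 3′ end, they were not divided by gene length.

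All 10 genes had a higher level in the plasma-positive library. Summed over the 10, the level was 63.1 CPM (60.5 to 65.8; 2179 UMIs) in plasma-negative and 147 CPM (143 to 151; 6174 UMIs) in plasma-positive microglia. That is a 2.33-fold difference (2.22 to 2.45). At 2-fold or more, 8 of the 10 genes were higher and 0 were lower. Of 11498 genes with a mean CPM of at least 1, 89 (0.774%) were higher by that rule and 6 (0.0522%) were lower. Oasl1, among the 8, met this minimum only through its plasma-positive level. The median log2 ratio of the 10 genes was 1.18, against -0.04 over all compared genes.

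**Figure D1:**
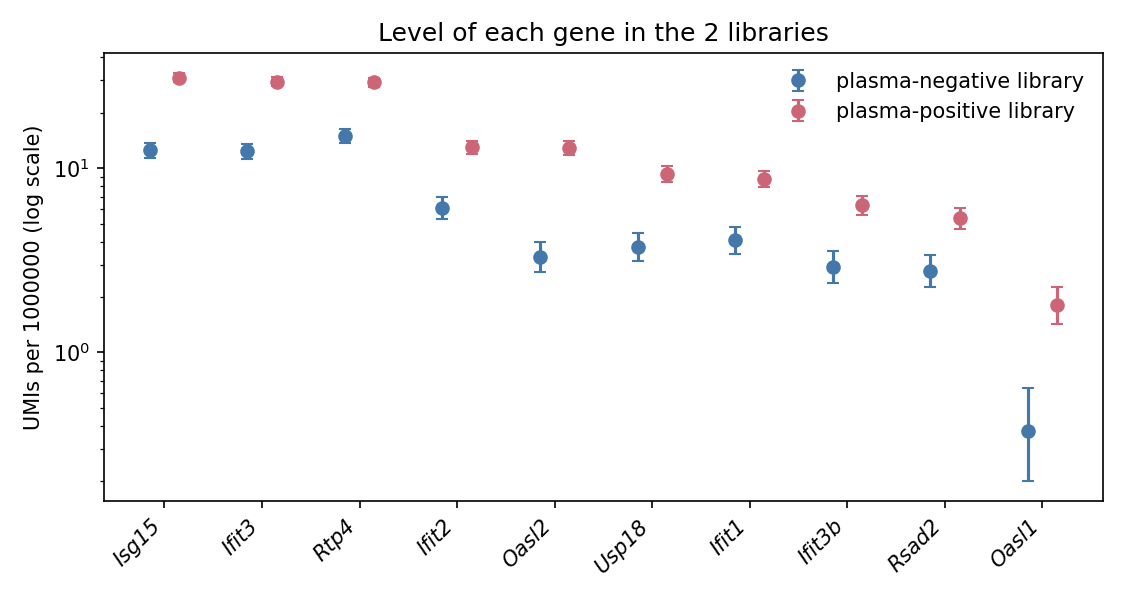
Level of each gene in UMIs per 1000000 on a log scale, with the plasma-negative library in blue and the plasma-positive library in red. Bars are exact 95% Poisson intervals for counting error with 1 library per group; no gene's intervals overlap between the libraries, and Oasl1 is the lowest in both.

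Among the Ifit genes, Ifit3 was the most abundant, at 12.4 CPM (11.2 to 13.6) from 427 plasma-negative UMIs and 29.4 CPM (27.8 to 31.1) from 1234 plasma-positive UMIs. Its ratio was 2.38 (2.13 to 2.66). Ifit2 stood at 6.11 and 13.0 CPM from 211 and 544 UMIs, a ratio of 2.12 (1.81 to 2.5). For Ifit1, whose protein recognises RNA that lacks the host's cap methylation, 140 and 367 UMIs gave 4.05 and 8.74 CPM and a ratio of 2.16 (1.77 to 2.64). Ifit3b had 101 and 264 UMIs, or 2.92 and 6.29 CPM, with a ratio of 2.15 (1.70 to 2.73). The intervals of the 4 ratios overlapped, and the Ifit genes together were 2.25-fold higher (2.09 to 2.44).

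Isg15 and its protease had like ratios at different levels. Isg15 reached 12.5 CPM (11.4 to 13.8) from 433 UMIs and 31.0 CPM (29.3 to 32.7) from 1301 UMIs, 2.47-fold higher (2.22 to 2.76). Usp18 reached 3.74 and 9.27 CPM from 129 and 389 UMIs, 2.48-fold higher (2.03 to 3.05). Isg15, Ifit3 and Rtp4 were the 3 most abundant of the 10 in both libraries, and their intervals overlapped one another in the plasma-positive library.

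The Oasl genes had the highest ratios of the 10. Oasl2 stood at 3.30 CPM (2.72 to 3.97; 114 UMIs) in plasma-negative and 12.9 CPM (11.8 to 14.0; 542 UMIs) in plasma-positive microglia, a ratio of 3.91 (3.19 to 4.83). That interval lay above those of Ifit1, Ifit2, Ifit3, Ifit3b, Isg15, Usp18, Rsad2 and Rtp4. These intervals treat each UMI as independent, whereas the UMIs of a gene were bunched in few cells. The variance of UMIs per cell over their mean was 2.39 (plasma-negative) and 2.91 (plasma-positive) for Oasl2, and 9.61 and 9.49 for Ifit3. The spread across cells is therefore not in the intervals, and this order of genes was not tested. Oasl1, known to restrain translation of the transcription factor Irf7, had only 13 plasma-negative UMIs (0.376 CPM, 0.20 to 0.644) and 76 plasma-positive UMIs (1.81 CPM, 1.43 to 2.27). Its ratio of 4.81 had a wide interval, from 2.65 to 9.44. By rank of the log2 ratio among the compared genes, Oasl1 was number 15 and Oasl2 number 21, and Rsad2 was the last of the 10 at number 99. Oasl1 met the minimum mean of 1 CPM only through its plasma-positive level. A gene this low in plasma-negative cells is compared only if its ratio is high, so its rank and 2-fold call depend on that filter.

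Rtp4 and Rsad2 were the 2 genes just under 2-fold. Rtp4 had 14.9 CPM (13.7 to 16.3; 515 UMIs) and 29.3 CPM (27.7 to 31.0; 1232 UMIs), a ratio of 1.97 (1.77 to 2.19). Rsad2 had 2.78 CPM (2.25 to 3.39; 96 UMIs) and 5.36 CPM (4.68 to 6.11; 225 UMIs), a ratio of 1.93 (1.51 to 2.47). Rsad2 was also the gene most concentrated in single cells. One cell held 30 of its 96 plasma-negative UMIs (31.3%), and 1 cell held 47 of its 225 plasma-positive UMIs (20.9%). Without the top cell of each library, 66 and 178 UMIs were left, the log2 ratio went from 0.95 to 1.15, and Rsad2 passed 2-fold. Leaving out each gene's own top cells in this way gave 9 of 10 genes at 2-fold or more.

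No UMI of any of the 10 genes was found in most microglia. At least 1 of them was found in 883 of 9860 plasma-negative cells (8.96%, 8.40% to 9.54%) and in 1655 of 10362 plasma-positive cells (16%, 15.3% to 16.7%). The most often detected was Rtp4, in 4.06% and 7.74% of cells, followed by Isg15 in 2.72% and 6.0% and Ifit3 in 1.62% and 4.40%. Ifit2 was found in 1.05% and 2.61%, Usp18 in 1.03% and 2.71%, Oasl2 in 0.801% and 3.10%, and Ifit1 in 0.669% and 1.88%. The rarest were Ifit3b in 0.477% and 1.45%, Rsad2 in 0.456% and 0.955%, and Oasl1 in 0.101% and 0.502%.

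The difference between the libraries lay more in how many cells had a UMI than in how many UMIs such a cell had. For the share of cells, the plasma-positive to plasma-negative ratio ran from 1.91 (Rtp4) to 4.95 (Oasl1). For UMIs per cell with a UMI, it ran from 0.819 (Ifit3b) to 1.29 (Isg15). The first ratio exceeded the second for 10 of 10 genes, both at own depth and with each cell thinned to 1000 UMIs. Ifit3 was an example, with 2.67 UMIs per cell with a UMI in the plasma-negative library and 2.71 in the plasma-positive one. Thinning kept 9064 and 9759 cells, left out 796 and 603 shallower ones, and gave share ratios from 1.73 (Usp18) to 4.41 (Oasl1). Near 1 UMI per cell with a UMI, this second quantity has little room to differ.

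Cells with several of the genes were rare, and more frequent among plasma-positive microglia. At least 3 different genes of the 10 were found in 81 plasma-negative cells (0.822%, 0.653% to 1.02%) and 355 plasma-positive cells (3.43%, 3.08% to 3.79%), a ratio of shares of 4.17 (3.27 to 5.38). This is a range on a count and not a cell type: 31 and 112 of those cells had exactly 3, and 75 and 219 further cells had exactly 2. The cells with 3 or more held 54.9% of the plasma-negative and 70.9% of the plasma-positive UMIs of the 10 genes, with a mean of 14.8 and 12.3 such UMIs per cell. In all other cells the summed level was 28.8 CPM in the plasma-negative and 44.7 CPM in the plasma-positive library, a smaller ratio of 1.55 (1.44 to 1.68). The cut is on the same 10 genes and took away the larger share of UMIs from the plasma-positive library. The smaller ratio therefore follows from the cut and is no separate result.

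**Figure D2:**
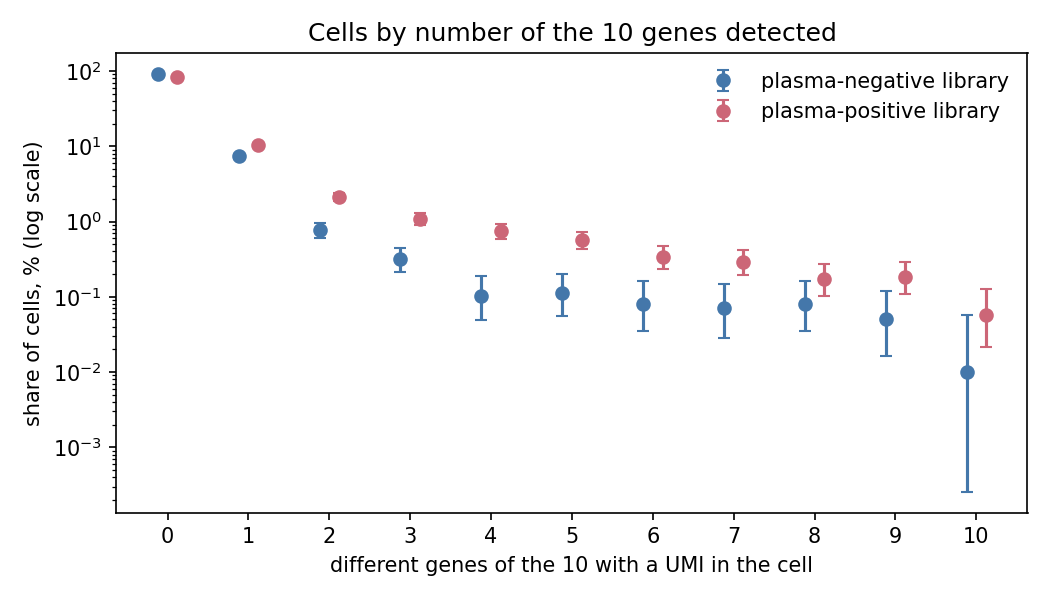
Share of cells (log scale) by how many of the 10 genes had a UMI in the cell, with plasma-negative in blue and plasma-positive in red and exact 95% binomial intervals. From 1 gene upwards each plasma-positive point lies above its plasma-negative one, and cells with no gene made up 91.0% and 84.0%.

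Depth differed between the libraries, so shares were also taken at 1000 UMIs per cell. At least 2 of the genes were then found in 59 of 9064 plasma-negative cells (0.651%) and 197 of 9759 plasma-positive cells (2.02%), a ratio of 3.10 (2.31 to 4.22). Because few cells qualified, the random draw mattered: another draw gave 4.62, and 50 draws gave a ratio of mean shares of 3.63, with single draws from 3.19 to 4.80. The share was higher in the plasma-positive library in each of these draws.

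Cells with 3 or more of the genes carried microglia markers, as did nearly all cells with none. All 81 and all 355 had at least 3 of the 10 microglia markers, against 8966 of 8977 and 8700 of 8707 cells with none. Of the 81 and 355, 0 had at least 3 markers of any of the 14 other cell types. Cells with none reached 3 only for plasmacytoid dendritic cell markers (7 and 9 cells) and oligodendrocyte lineage markers (4 and 3 cells). These counts therefore hardly separate the classes of cells. The neutrophil, erythroid, B cell and T or NK cell lists had fewer than 3 markers with a UMI in each library, so no cell could reach 3 there. In the plasma-negative library the same held for the mural or fibroblast and the ependymal lists. Monocyte markers summed to 24.5 CPM (10 UMIs) in the plasma-negative and 14.7 CPM (27 UMIs) in the plasma-positive cells with 3 or more of the genes, against 4.04 and 3.48 CPM in cells with none. Of these UMIs 8 and 21 were of Plac8, which was 46.4-fold (16.7 to 121) and 19.4-fold (10.0 to 37.8) higher there and was picked out after its values were seen, while the monocyte marker Ly6c2 had 0 UMIs in both libraries. Border macrophage markers stood at 2.45 CPM (1 UMI) and 9.82 CPM (18 UMIs), against 3.48 and 4.16 CPM. The part of these markers in the results was not tested.

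In cells with 3 or more of the genes against cells with none, P2ry12, the purine receptor of surveying microglia, had a ratio of 0.898 (0.844 to 0.954) in the plasma-negative and 0.798 (0.773 to 0.824) in the plasma-positive library. Cx3cr1, the fractalkine receptor, had ratios of 1.04 (0.998 to 1.08) and 0.939 (0.920 to 0.958). The median depth of cells with 3 or more of the genes was 3933 and 4232 UMIs, against 3229 and 3677 in cells with none, so detection and depth moved together.

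The make-up of these cells was alike in outline. Rtp4 was found in 85.2% of the 81 and 80.8% of the 355, Ifit3 in 77.8% and 74.4%, and Isg15 in 71.6% and 73.8%. Ifit2 was found in 66.7% of the plasma-negative and 50.7% of the plasma-positive ones, and Oasl2 in 35.8% and 57.2%. Only 12.3% and 12.7% had Oasl1. The strongest plasma-positive cell had 191 UMIs of the 10 genes with all 10 detected, among them 47 of Rsad2 and 45 of Ifit3. Its plasma-negative counterpart had 93, with 30 of Rsad2, 26 of Ifit3 and 0 of Oasl1 and Oasl2.

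The 10 genes were detected together far more often than depth alone would give. For each of the 45 pairs, an odds ratio of detection in the same cell was computed over 10 bins of depth. Its median was 47.6 (range 8.12 to 4370) in the plasma-negative and 30.7 (9.46 to 72.7) in the plasma-positive library, and 44 of 45 pairs exceeded 10 in each. The 7 highest plasma-negative values all involved Oasl1, which had a UMI in 10 cells there, each with at least 2 other genes of the 10. Without Ifit3b, whose reads may be shared with Ifit3, the plasma-negative median was 30.7 and the plasma-positive one 28.3. Odds ratios over cells of 1 library are a description of that library, with no test.

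**Figure D3:**
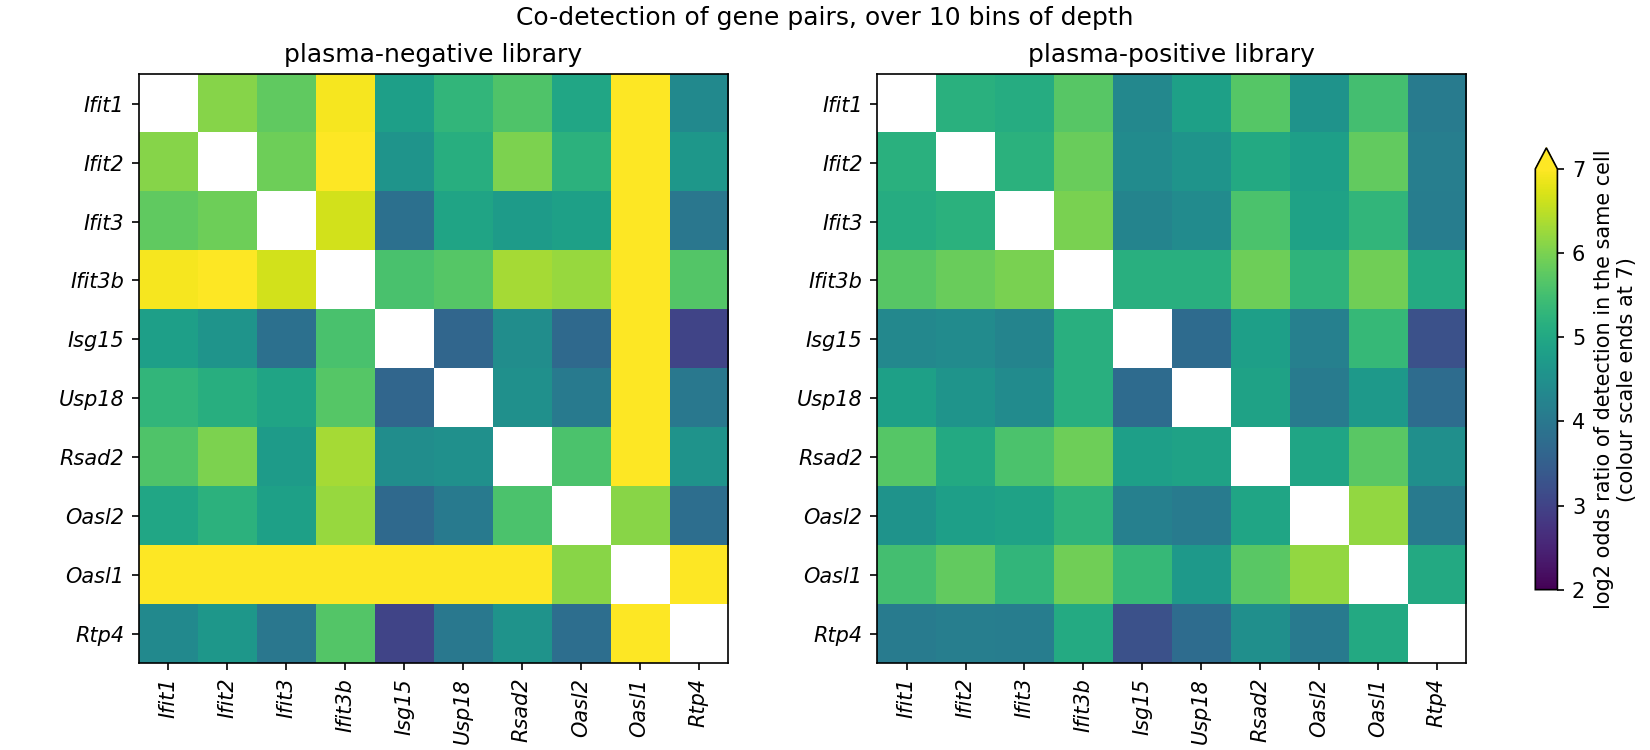
Log2 odds ratio that both genes of a pair had a UMI in the same cell, over 10 depth bins, in the plasma-negative (left) and plasma-positive (right) library; yellow marks values at or above 7. Isg15 with Rtp4 is the darkest pair in both, at odds ratios of 8.12 and 9.46, and the Oasl1 row is bright on the left, where it rests on 10 cells.

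Isg15 and Rtp4, the 2 most often detected genes, were also the pair least tied to each other. They shared 68 plasma-negative cells against 12.9 given by depth bin and detection rate alone, and 244 plasma-positive cells against 55.7. Ifit2 and Ifit3, neighbours on chromosome 19, shared 47 plasma-negative cells against 2.30 and 150 plasma-positive cells against 13.6. For Ifit1 and Isg15, on different chromosomes, the figures were 30 against 2.28 and 107 against 13.8. Of cells with an Isg15 UMI, 31.7% in the plasma-negative and 54.8% in the plasma-positive library had another of the 10 genes. For Ifit3b the shares were 76.6% and 88.0%, and for Oasl2 49.4% and 77.6%.

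The genes whose level across cells was most like that of the 10 were mostly other interferon-induced genes. Likeness was the smaller of the 2 libraries' Pearson r, over 9860 and 10362 cells, between the log-scaled counts of a gene and of the 10 summed. The cells of a library share its preparation, depth differs among them, and most counts are 0. Irf7, the transcription factor that amplifies interferon production, was first with r = 0.325 and 0.460. Ifi204 followed with 0.317 and 0.495, Ifitm3 with 0.308 and 0.486, Ifi207 with 0.296 and 0.385, and Zbp1, a sensor of Z-form nucleic acids, with 0.259 and 0.338. The others of the first 10 were Slfn5, Ifi206, Ifi211, Slfn2 and Iigp1, with the smaller r from 0.245 to 0.225. Of these 10 genes, 8 stood in the interferon lists used below. The median of the smaller r over 11488 genes was -0.005.

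The cells were also divided by their UMIs of Apoe, the lipid carrier gene, whose own level differed between the libraries. Among plasma-positive cells the summed level of the 10 genes was highest where Apoe was high, and among plasma-negative cells the summed level was lowest there. Apoe stood at 171 CPM (167 to 176) among plasma-negative and 1190 CPM (1180 to 1200) among plasma-positive cells, and it ranked number 2269 by likeness, with r = 0.004 and 0.162. In cells without an Apoe UMI (8349 and 6736 cells) the summed level of the 10 genes was 65.4 CPM (62.4 to 68.5) and 107 CPM (103 to 111), a ratio of 1.64 (1.54 to 1.74). With 1 to 2 Apoe UMIs (984 and 2205 cells) it was 63.7 and 108 CPM, a ratio of 1.70 (1.48 to 1.95). With 3 or more (527 and 1421 cells) it was 36.6 CPM (29.5 to 44.8) and 333 CPM (320 to 346), a ratio of 9.11 (7.39 to 11.3). This last class has no upper limit and is cut on raw UMIs. The libraries were therefore not matched there for Apoe level or depth, and the ratio is not one at like Apoe.

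**Figure D4:**
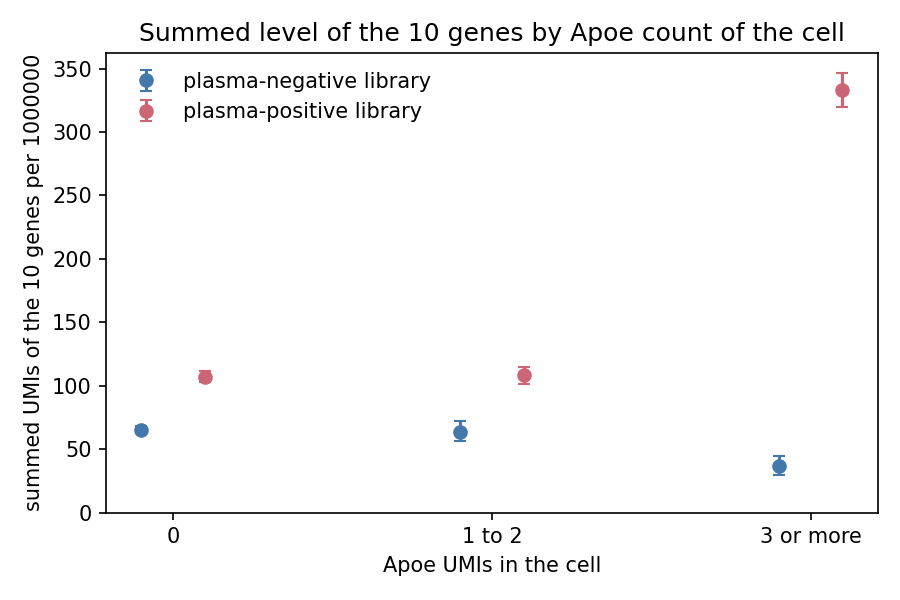
Summed level of the 10 genes in UMIs per 1000000, in cells with 0, 1 to 2 and 3 or more Apoe UMIs, with exact 95% Poisson intervals. The plasma-positive level stands at 107, 108 and 333 CPM from left to right, and the plasma-negative level at 65.4, 63.7 and 36.6 CPM.

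Among plasma-positive cells with 3 or more Apoe UMIs, 119 of 1421 (8.37%) had at least 3 of the 10 genes. Among plasma-negative ones it was 6 of 527 (1.14%), against 0.779% and 1.02% with 0 and with 1 to 2 Apoe UMIs. This share therefore did not follow the summed level, and it rests on 6 cells. Nor did each gene, since plasma-negative Oasl2 stood at 3.30, 3.17 and 3.58 CPM from low to high Apoe, and Rtp4 at 15.3 and 15.1 CPM at the ends and lower between. Read the other way, 6 of the 81 plasma-negative cells with 3 or more of the genes (7.41%) and 119 of the 355 plasma-positive ones (33.5%) had 3 or more Apoe UMIs. The 172 plasma-positive cells with at least 3 of the genes and no Apoe UMI were 2.55% of their stratum, against 65 cells (0.779%) in the plasma-negative library.

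Gene by gene, the ratio in cells without an Apoe UMI reached 2-fold only for Oasl2, at 2.36 (1.83 to 3.05). It lay between 1.5 and 1.80 for Ifit1, Ifit2, Ifit3, Ifit3b, Isg15, Usp18, Oasl1 and Rtp4. Rsad2 differed in direction, with 3.12 CPM (87 UMIs) in plasma-negative and 2.48 CPM (62 UMIs) in plasma-positive cells, a ratio of 0.796 whose interval (0.566 to 1.12) includes equal levels. One plasma-negative cell gave 30 of those 87 UMIs, and the direction rested on it. Without it the ratio was 1.22 (0.834 to 1.77), and also without the top plasma-positive cell, which gave 8 UMIs, 1.06 (0.716 to 1.56). In cells with 3 or more Apoe UMIs all 10 genes had the higher level in the plasma-positive library. Rtp4 had the smallest ratio there, 3.05 (2.18 to 4.39), and Ifit3 stood at 3.97 CPM from 10 UMIs and 77.0 CPM from 568 UMIs, a ratio of 19.4 (10.5 to 40.6). Rsad2 had 0 plasma-negative and 139 plasma-positive UMIs in these cells, and Oasl1 had 0 and 49.

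Depth and mitochondrial share gave narrower ranges. The cells of both libraries were cut together into 4 equal bins of UMIs per cell, and the ratio of the summed level was 3.10 (2.64 to 3.66) in the shallowest bin and between 2.08 and 2.32 in the other 3. Over 4 equal bins of mitochondrial share it ran from 2.20 to 2.59. The plasma-positive library was higher in each bin of both measures.

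Other genes of the interferon pathway were read from lists, and their ratios were mostly smaller than those of the 10. The oligoadenylate synthetases, which sense double-stranded RNA, had 2 compared genes with 0 at 2-fold. Oas1a was the highest at 2.84 and 5.67 CPM, a ratio of 2.0 (1.57 to 2.55) that fell just short of the threshold. Oas1g, Oas2 and Oas3 were too low to compare, with 3, 4 and 3 plasma-negative against 34, 46 and 22 plasma-positive UMIs, and are named after their values were seen. Oas1c had a log2 ratio of 0.30. The enzymes that attach Isg15 to proteins had 4 compared genes with 0 at 2-fold and a median of 0.22. Among them the conjugating enzyme Ube2l6 had 6.69 and 8.74 CPM (log2 ratio 0.39), Trim25 a log2 ratio of 0.31 and the ligase Herc6 one of 0.13. Uba7, the activating enzyme, had 32.5 and 31.4 CPM and a log2 ratio of -0.05.

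Of 29 compared genes in the list of further type I interferon-induced genes, 7 were at 2-fold or more higher and 0 lower, and 28 had a ratio above 1, with a median log2 ratio of 0.34. Ifi207 had the highest, 1.97 against 10.7 CPM (log2 ratio 2.44), followed by Ifi27l2a at 19.5 against 90.9 CPM (2.22) and Ifitm3, a membrane protein that blocks viral entry, at 13.1 against 58.1 CPM (2.15). The lowest were Nmi at -0.03 and Znfx1 at 0.08. Ifi44 was too low to be compared, with 0 plasma-negative and 57 plasma-positive UMIs. Set against 3 counts in the plasma-negative library, which a count of 0 allows, it was at least 15.6-fold higher. The exact interval, which also covers the counting error of the 57 UMIs, has a lower limit of 12.3-fold. Ifi44 was picked out after its values were seen.

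In the list of genes of the interferon gamma type, 1 of 10 compared genes was at 2-fold or more higher. This was Iigp1, an immunity-related GTPase, at 0.608 against 3.57 CPM (log2 ratio 2.55). Next were Ifi47 (0.88) and Gbp2 (0.83), and the lowest were Irgm2 (0.01) and Gbp5 (0.05), with a median of 0.21.

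Upstream parts of the pathway were close to equal between the libraries. Of 17 receptors, kinases and transcription factors, only Irf7 was at 2-fold or more higher, at 4.08 against 10.7 CPM (log2 ratio 1.40), and the median was 0.002. Stat2 stood at 15.3 and 20.1 CPM (0.39) and Socs3, a feedback inhibitor, at 23.0 and 26.5 CPM (0.20), and the lowest were Irf3 (-0.14) and Jak2 (-0.11). None of 10 compared nucleic acid sensors and adaptors reached 2-fold, with a median of 0.02. Dhx58 was the highest at 0.46, ahead of Ifih1 (0.16) and Ddx58 (0.13), which encodes RIG-I, and the lowest were Tlr9 (-0.16) and Tmem173 (-0.10), which encodes STING. No gene in any of these lists was lower by 2-fold.

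**Figure D5:**
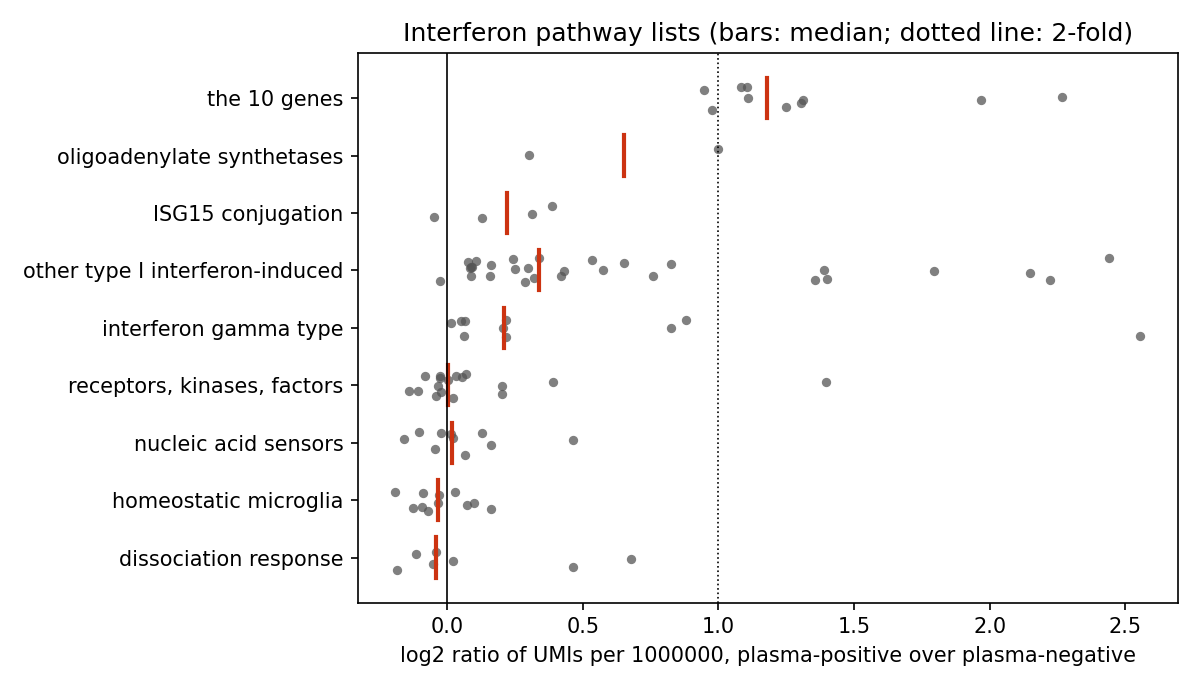
Log2 ratio of UMIs per 1000000, plasma-positive over plasma-negative, for each compared gene (grey points, spread vertically only for legibility) by list, with the list's median in red. The 10 genes have a median of 1.18, the further type I interferon-induced genes 0.34, and the receptor, sensor, microglia and dissociation lists lie near 0.

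The homeostatic and dissociation lists, outside the pathway, stood near the median of all genes. Homeostatic microglia genes had 11 compared genes, 0 at 2-fold in either direction and a median log2 ratio of -0.03, from Cx3cr1 (-0.19) and Gpr34 (-0.12) to Cst3 (0.10) and Fcrls (0.16). Genes that tissue dissociation induces had 7 compared, 0 at 2-fold and a median of -0.04. Among these Egr1 (0.68) and Dusp1 (0.46) were the highest and Jun (-0.18) and Ier2 (-0.12) the lowest. Of the 14 marker lists of other cell types, 2 had a summed level whose interval lay above equal levels. Border macrophage markers were 1.48-fold higher (1.18 to 1.86; 122 against 219 UMIs, most of them of Mrc1), and neuron markers 1.68-fold higher (upper limit 2.28; 69 against 141 UMIs). Plasmacytoid dendritic cell markers were the 1 list with an interval below it, at 0.960 (0.939 to 0.980).

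The same pathway genes were then read across cells. In cells with 3 or more of the 10 genes, Irf7 stood at 172 CPM in the plasma-negative and 156 CPM in the plasma-positive library, against 1.63 and 2.21 CPM in cells with none. Stat2 had 128 and 99.2 CPM against 13.5 and 15.0 CPM. For the receptor subunit Ifnar2 the levels were 270 and 321 CPM against 316 and 311 CPM, and for Irf8, a lineage factor of microglia, 569 and 552 CPM against 528 and 515 CPM. Irf7 and Stat2 were not the only ones of their list with higher levels there. Irf1 had 140 and 90.5 CPM against 43.6 and 42.9 CPM, and Irf9 157 and 114 CPM against 55.0 and 56.5 CPM. Ifngr1 was lower, at 889 and 782 CPM against 1012 and 965 CPM. Ifnar2, Irf8, Irf1, Irf9 and Ifngr1 were picked out with their values known. These classes were cut on the 10 genes, so the values describe cells of each library and are not a comparison of conditions.

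Interferon transcripts themselves were almost absent. Of 14 interferon genes, 12 had 0 UMIs in both libraries, and 0 were abundant enough to compare. Ifnb1, which encodes interferon beta, had 10 UMIs in the plasma-negative library, all in 1 cell. That cell was the one with the most UMIs of the 10 genes in its library, at 93 of its 4661 UMIs, and it also held 170 UMIs of the chemokine Cxcl10, 69 of Ccl4 and 26 of Ccl5. The single Ifnb1 UMI of the plasma-positive library lay in a cell with none of the 10 genes. The Ifnb1 cells were looked at after the values were seen. At this depth a cell with few interferon transcripts may go undetected.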

How the data were processed

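The libraries of sorted microglia, 1 per group, were made with the 10x Chromium Single Cell 3′ chemistry. Each matrix was deposited as raw counts of UMIs. Per the file headers Cell Ranger 6.1.2 wrote them, whereas the submitters' processing notes name Cell Ranger 3.0.1. Genome build, annotation, use of strand and cell calling are not given in the sources used here, and barcode sequences were not analysed here. Of 31053 listed identifiers, 30934 (99.6%) were found in GENCODE M21, which supplied coordinates only.

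The matrices listed 9878 cells with 34549522 UMIs (plasma-negative) and 10390 cells with 42006454 UMIs (plasma-positive). The filter asked for 500 or more UMIs, 300 or more genes and no more than 10% mitochondrial UMIs per cell. Doublet-like cells stayed in: Scrublet (scanpy 1.11.5) by its automatic threshold called 11 and 2 cells, too few to have worked, and removal of the highest-scoring 779 and 861 was an alternative. Counts were summed per library and divided by its total. Genes with a mean CPM of at least 1 were compared, with no pseudocount, and called at 2-fold. Intervals are exact Poisson (CPM), Clopper-Pearson (shares) and conditional binomial (ratios), computed with scipy 1.17.1. Odds ratios are Mantel-Haenszel over 10 depth bins. Code was tested on simulated data.

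Named genes are the 10, the 10 most like them, the 3 highest and 2 lowest compared genes per list, Apoe and microglia markers. Other genes are named where the text says so. The members, lists and rules were chosen with earlier results of these data known. Some genes of the lists are not reported here and were left out of the list counts. With 1 library per group, differences between mice, sorts and preparations are not in any interval. Intervals of CPM and of CPM ratios also leave out the bunching of UMIs in few cells.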

Additional observations from a re-analysis of the deposited data

How the results depend on the processing

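No paired analysis was possible because there was only 1 library for either sort, so that no replicate could be left out either. Over other choices of cell filter, doublet removal, scaling and thinning, 70 of 70 log2 ratios of single genes stayed above 0, from 0.79 to 2.30. Thinning moved Ifit3b to 1.78 and Usp18 to 0.81, and scaling shifted the median of all genes by less than 0.1. The summed log2 ratio of 1.22 became 0.71 in cells without an Apoe UMI, an alternative chosen after seeing the data. There 1 of the 10 genes and 40 genes in all were at 2-fold, and Rsad2 reversed to -0.33, which turned to 0.28 without 1 plasma-negative cell and to 0.08 without the top cell of each library. The 89 genes at 2-fold became 29 (of 9525) with a mean CPM of at least 5, 12 (of 8251) with at least 10, 19 (of 8355) with at least 10 in 1 library, and 187 at 1.5-fold. The 8 of 10 genes became 2 of the 3 left at a mean of 10 CPM and 4 of the 5 left at 10 CPM in 1 library, where fewer genes were compared. With all 10 still compared it became 7 with thinning. It became 9 with TMM scaling, without the highest doublet scores, or without each gene's top cell. Leaving out single cells was also chosen after seeing the data. The mean over cells gave 7 as well, where only Rsad2 (0.79) and Rtp4 (0.98) had a log2 ratio under 1. A gene past 2-fold missed the minimum mean CPM there and was not counted. For cells with at least 2 of the genes at 1000 UMIs, the ratio of 3.10 became 4.62 with another random draw and 3.63 as the mean over 50 draws, the latter added after seeing the data. The plasma-negative median odds ratio of 47.6 became 53.6 without depth bins, 55.3 after thinning, 49.5 without the highest doublet scores and 30.7 without Ifit3b. The plasma-positive one of 30.7 became 34.4, 35.9, 31.1 and 28.3 in the same order. Rare genes are limited by counts, as the 13 plasma-negative UMIs of Oasl1 show.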
